A study of Mus musculus with 6 samples.

Results

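The arrays compared here are the 2 that were hybridized on the later date, control 2 and high dose 2, and their first-date partners of the same dose, control 1 and high dose 1. They are 4 of the 6 arrays in the study, and were chosen by the dose group, hybridization date and RNA integrity number (RIN) in the labels. All arrays carried RNA from the hippocampus of male, single-housed DBA/2 mice, 10 animals per dose group, which took up venlafaxine with the drinking water at 0 (control), 30 (low dose) or 100 (high dose) mg per kg and day over 30 days. Each array held 1 pool from the left or the right side. Control 1 was a right pool of RIN 8.7 and control 2 a left pool of RIN 7.9, whereas high dose 1 was a left pool of RIN 8.5 and high dose 2 a right pool of RIN 8.2. Both low dose arrays (right, RIN 9.1, and left, RIN 8.9) were hybridized on the first date and served as a pair without a date difference. Of 45101 probe sets, 34945 carried exactly 1 gene symbol, and 19444 of these, from 11559 genes, lay above the arrays' median signal on average and were tested.

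RIN grades how intact total RNA is, largely from its ribosomal bands. The labelling kit copies RNA from the poly(A) tail inward with an oligo(dT) primer, so that a broken molecule yields copies of the part attached to the tail. A gene is often covered by several probe sets, which read different stretches or different 3′ ends of its transcripts and can therefore respond differently to RNA breakage, priming and alternative polyadenylation. Venlafaxine is an antidepressant that blocks reuptake of serotonin and noradrenaline. Markers of the labelled tissue gave mean log2 levels of 12.44 for C1ql3 and 12.52 for Calb1 (dentate granule cells), 10.66 for Wfs1 (CA1) and 12.92 for Pcp4 (CA2). Markers of neighbouring tissues were also above the median signal, with Ttr of the choroid plexus at 15.03 and Penk of the striatum at 11.34, so these levels do not set the hippocampus apart.

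The later date and the lower RIN occur on the same 2 arrays and cannot be told apart. Side is balanced in the mean of both pairs, but the difference between the pairs is also the difference between right and left. The labels do not say that left and right pools came from separate animals, and each p-value reflects differences among pools alone, possibly technical ones. Precision is limited by having 4 arrays in the comparison and 6 in the fit. A pool with fewer cells of a type and one with less RNA per cell cannot be told apart.

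On the later arrays 709 probe sets were higher and 1408 lower than on their first-date partners (limma with Benjamini-Hochberg adjustment, threshold 0.05). This is 10.9% of those tested, 3.65% higher and 7.24% lower, and 4372 had an unadjusted p under 0.05. The calls fell in 630 genes for the higher and 1262 genes for the lower probe sets. The fit found no more variation between probe sets in their spread than 1 common value explains, so all share a standard error of 0.0934 log2 and p ranks them by size; the smallest called difference was 0.26 log2, or 1.20-fold. At 0.5 log2 or more, 146 were higher and 125 lower. Since the call is made on the mean of both pairs, it favours pairs that moved the same way. They did so for 692 of the 709 higher and 1404 of the 1408 lower probe sets. For 643 and 1366 of them both later arrays lay outside all 4 first-date arrays, a placement found above for 8.39% and below for 30.3% of all tested probe sets. The split between directions moved with the scaling of the arrays: 33.5% of calls were higher on the values as deposited, 47.2% after quantile normalization and 64.9% after equalizing the interquartile range.

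The probe sets with the largest rise were led by a pair of noncoding RNAs and a kinase. A330076H08Rik, a long noncoding RNA, read 7.73 on control 1 and 8.56 on high dose 1, against 9.65 on control 2 and 9.39 on high dose 2. Its mean difference was 1.37 ± 0.78 log2 (SD, n = 2 pairs), or 2.59-fold, and control 1 stood below the other first-date arrays, where the low dose arrays read 8.53 and 8.63 (limma adjusted p = 2.45e-44). With a variance prior that allows outlying probe sets, this call was lost (limma adjusted p = 0.239). Snhg11, the noncoding host of a small nucleolar RNA, read 11.38 and 10.95 on control 1 and high dose 1 and 12.10 on both later arrays at probe set 1437311_at. The difference was 0.94 ± 0.31 (SD, n = 2 pairs; limma adjusted p = 7.94e-20), and both later arrays lay above all 4 first-date arrays. Gsk3b, a kinase of Wnt and insulin signalling, read 10.48 on both first-date partners, 11.10 on control 2 and 11.67 on high dose 2 at 1437001_at, a rise of 0.91 ± 0.40 (SD, n = 2 pairs).

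Eif5, which triggers GTP hydrolysis during start codon selection, rose at 1454664_a_at from 10.69 to 11.18 in the control pair and from 10.45 to 11.73 in the high dose pair. Eif3c, a subunit of initiation factor eIF3, rose at 1415859_at from 9.25 to 9.74 and from 9.25 to 10.47. Cplx2, a complexin that binds the SNARE complex at synaptic vesicles, rose at 1421477_at from 12.07 to 12.57 and from 11.87 to 13.05. In all of these the high dose pair moved further than the control pair. The remaining 6 were Ccser2 (0.84), Ankrd17 (0.83), the plasma membrane calcium pump Atp2b1 (0.83), the plakophilin Pkp4 (0.83), the calcium channel subunit Cacna2d1 (0.82) and the Rab GTPase-activating protein Evi5 (0.82). The high dose pair showed the larger rise in 11 of the 12, with A330076H08Rik as the exception.

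The largest fall was that of Oxct1, the enzyme that activates ketone bodies for use as fuel. At 1436750_a_at it fell from 12.28 to 11.35 in the control pair and from 12.09 to 11.06 in the high dose pair. This is a fall of 0.98 ± 0.075 (SD, n = 2 pairs), 1.97-fold, with both low dose arrays at 11.96 and 11.79 (limma adjusted p = 1.41e-21). Tm9sf2, a membrane protein of the Golgi and endosomes, fell at 1423295_at from 10.11 to 9.15 and from 9.89 to 9.18. Hspa8, the constitutive cytosolic Hsp70 chaperone, fell at 1420622_a_at from 13.15 to 12.51 and from 13.04 to 12.08. Each of these later values lay below all 4 first-date arrays.

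Mlf2 (-0.78), the kinase Araf (-0.77), Arhgap5 (-0.76), the ubiquitin ligases Pja1 (-0.74) and Rnf14 (-0.69), the ADP/ATP carrier Slc25a5 (-0.73), the kinesin heavy chain Kif5b (-0.73) and the intermediate filament Vim (-0.69) also fell. Ptgds, the prostaglandin D2 synthase of meninges and choroid plexus, had -0.76 at 1423860_at but differed between arrays of 1 date: it read 11.92 and 12.62 on low dose 1 and 2, and 12.38, 12.52, 11.34 and 12.05 on control 1, high dose 1, control 2 and high dose 2. The low dose difference of 0.71 was nearly as large as the date difference. Ptgds was the 1 named probe set of 24 whose later arrays did not lie outside the first-date arrays. In the other 23 the low dose pair differed by 0.26 or less.

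**Figure D1:**
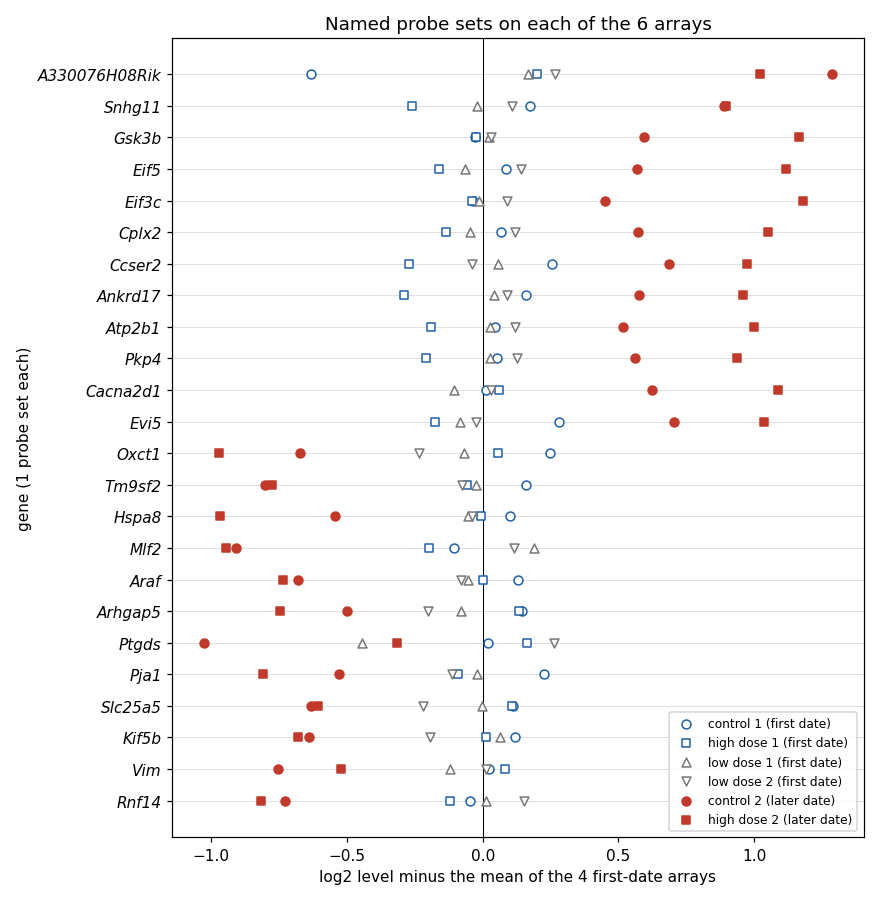
Log2 level of the 24 named probe sets on each of the 6 arrays, as the difference from the mean of the 4 first-date arrays (x axis), 1 gene per line; filled red points are the later arrays. The red points stand apart from the open points in 23 of the 24 lines, and in Ptgds high dose 2 overlaps low dose 1.

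Control and high dose pools were different RNA, yet the same probe sets moved in both pairs. Across the tested probe sets the control pair had a standard deviation of 0.175, the high dose pair 0.186 and the low dose pair 0.0963. The differences of the control and the high dose pair had a Pearson correlation of 0.588 across probe sets, while the low dose pair correlated with neither, at 0.056 with the control and 0.014 with the high dose pair. These describe 6 arrays, and probe sets are not independent replicates. All 36 probe sets that rose by 0.5 or more in the control pair were also above 0 in the high dose pair, with a median of 0.74 there. Of the 303 that fell by 0.5 or more in the control pair, 289 were below 0 in the high dose pair, with a median of -0.33. Control 2 and high dose 2, which differ in dose and side, had a correlation of 0.996, whereas control 1 with control 2 had 0.992 and high dose 1 with high dose 2 had 0.991.

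The pairs were not alike in balance. The called higher probe sets had a median of 0.25 in the control pair and 0.52 in the high dose pair, and the called lower probe sets -0.41 and -0.27. The median over all tested probe sets was -0.10 in the control pair, -0.01 in the high dose pair and 0.08 in the low dose pair. In the low dose pair, 64.9% of the called higher probe sets lay above 0, against 80.6% of all tested. Of the called lower probe sets 28.0% lay below 0 there, against 19.4% of all tested. RIN differed by 0.8 in the control pair, 0.3 in the high dose pair and 0.2 in the low dose pair. How the spread of a pair depends on RIN was not tested. Leaving out either control array left 686 higher and 310 lower calls; leaving out either high dose array left 150 higher and 1215 lower calls.

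**Figure D2:**
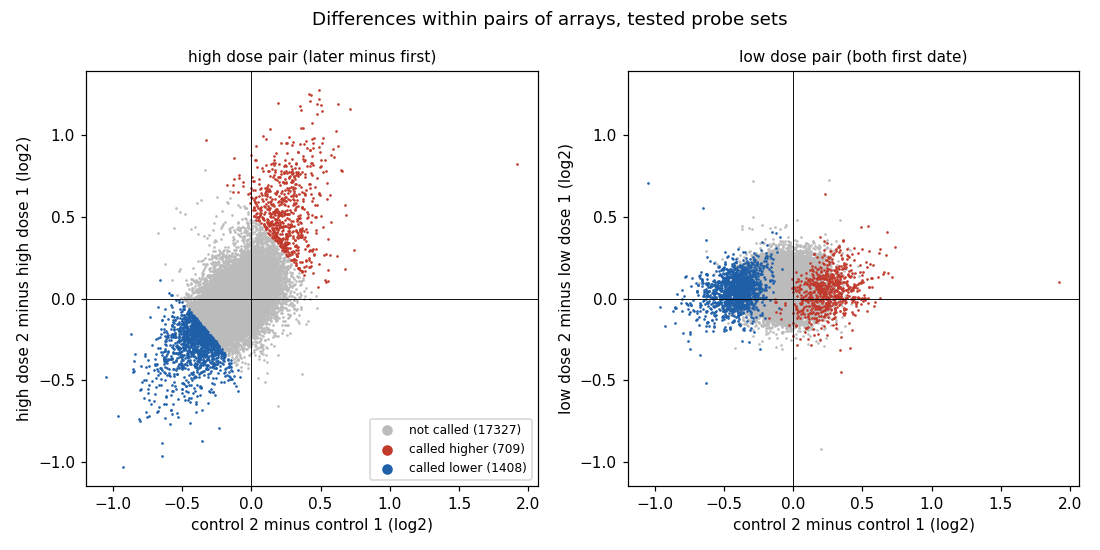
Difference between the arrays of a dose group for each tested probe set, in log2: the control pair (x axis) against the high dose pair (left) and against the low dose pair, both of whose arrays share the first date (right). The 709 called higher (red) and 1408 called lower (blue) lie along the diagonal on the left, since the call is made on the mean of those axes, and show no tilt on the right.

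Probe sets of the same gene showed little common movement. In 4904 genes with more than 1 tested probe set, the date difference of the brightest probe set (highest mean over the 6 arrays) and that of the next had a Pearson correlation of 0.0900 across genes and a Spearman correlation of 0.112. The same 2 probe sets correlated at 0.288 in the low dose pair. Yet each probe set repeated itself between pools: its control and high dose pair correlated at 0.631 for the brightest and 0.644 for the next. The standard deviation of date differences within genes was 0.169, against 0.176 over all 12789 probe sets of these genes. These are correlations across genes on shared arrays, and genes are not independent replicates.

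**Figure D3:**
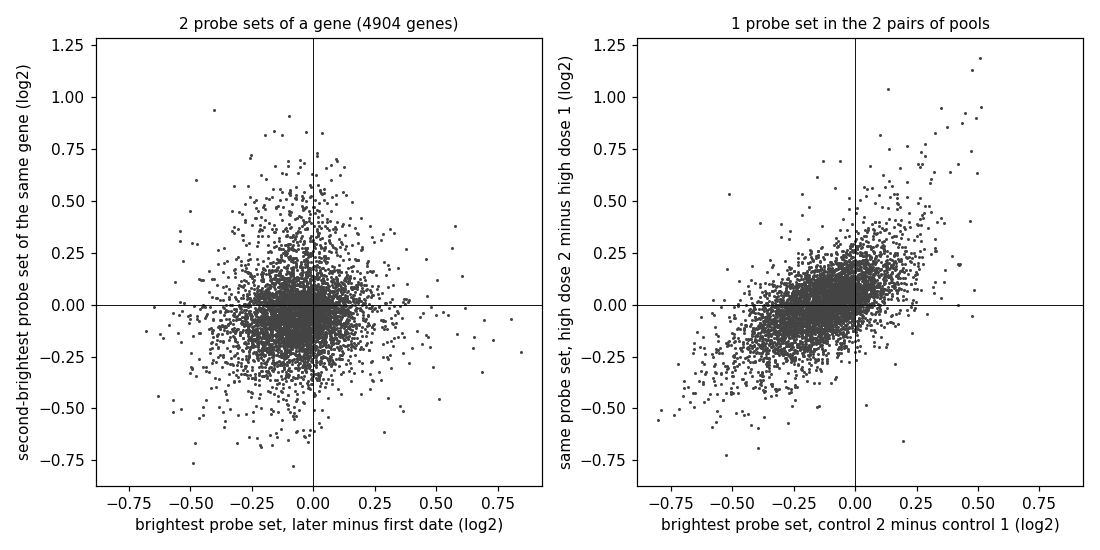
Left: date difference (log2) of the brightest (x axis) against the second-brightest (y axis) probe set of 4904 genes. Right: the brightest probe set of the same genes in the control pair (x axis) and in the high dose pair (y axis). The cloud on the left has almost no slope (Pearson 0.0900) and that on the right rises (Pearson 0.631).

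Of these genes, 1371 had at least 1 called probe set. A higher one occurred in 571, a lower one in 891, and calls in both directions in 91. Of the 571 genes, 15.9% also had a lower call, which is no larger a share than 891 of all 4904 genes. All probe sets of a gene were called higher in 3 genes and lower in 47. The difference between each dimmer probe set and the brightest of its gene was tested on the same arrays. It changed with the date in 1613 of 7885 cases, 20.5% (limma with Benjamini-Hochberg adjustment; 2676 at an unadjusted p under 0.05), in 1299 genes. In 12.4% the dimmer probe set moved up relative to the brightest and in 8.03% down. This balance depended on the scaling: 980 moved up and 633 down on the values as deposited, but 639 up and 1086 down with equal interquartile ranges. In 1612 of the 1613 both pairs had the same direction, which the call on their mean favours. In 1226 of the 1613 the probe sets themselves had opposite signs, which the call on a large difference between them also favours. The share with opposite signs over all 7885 differences was not counted. The low dose pair shared the direction of 50.4% of the called differences.

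Snhg11 showed the largest such difference. Its probe set 1434292_at fell from 13.06 to 12.61 in the control pair and from 12.91 to 12.56 in the high dose pair, while 1437311_at rose to 12.10 on both later arrays. The difference of the date differences was 1.34 (SE 0.096; limma). The low dose pair moved by 0.06 and 0.13 at these probe sets.

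Gria3, an AMPA receptor subunit, fell at 1434728_at from 12.34 to 11.81 and from 12.23 to 11.80, but rose at 1420563_at from 10.76 to 11.00 and from 10.39 to 11.34, a difference of 1.08 (SE 0.12; limma). Gad2, which makes GABA in interneurons, rose at 1421978_at from 9.26 to 9.92 and from 8.88 to 9.66, while 1429589_at read 11.27 and 11.30 on the first-date partners and 11.03 on both later arrays (difference 0.97, SE 0.089; limma). Cplx2 rose at 1421477_at, as given above, and fell at 1436383_at from 10.50 to 10.03 and from 10.26 to 10.11. The values of 1429589_at in Gad2 did not pass, whereas Cplx2 and Gria3 were called in opposite directions on the same arrays.

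Kif5b had the widest gap among genes called in both directions. Of its 6 tested probe sets 3 rose, at 0.62 (1418430_at), 0.51 (1418427_at) and 0.42 (1418431_at), and 1 fell, at -0.73 (1418428_at). The brightest, 1418429_at, had -0.14 and did not pass, and the low dose pair differed by -0.26 at 1418428_at. In Sf3b1, a core protein of the U2 snRNP, 1418562_at rose by 0.78 and 1440818_s_at fell by 0.49. In Zeb2, a transcription repressor, 3 of 5 probe sets rose and 2 fell, from 0.49 (1422748_at) to -0.68 (1434298_at), where the low dose pair also differed, by -0.34. Arhgap5 and Eif5 each had 1 probe set in each direction as well.

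The other genes with the largest differences between probe sets were the RNA and DNA binding protein Fubp1 (1.06), Oxct1 (-1.04), the helicase Dhx36 (1.03), Evi5 (1.01), Mtdh (-1.01), Gsk3b (1.01), Ccser2 (1.00) and the potassium channel Kcnma1 (-0.99). In Gsk3b the 5 other tested probe sets had values from -0.24 to 0.23 and none passed. In Oxct1 the brightest probe set read 12.71 and 12.68 on the first-date partners and 12.75 on both later arrays. Of the 12 genes with the largest rise 11 had more than 1 tested probe set. Of their 24 other probe sets 0 were called higher and 3 lower, with values from -0.41 to 0.23 (Snhg11, Eif5, Cplx2 and others). Over all tested probe sets 3.65% were called higher and 7.24% lower, and 24 are too few to tell these counts from those shares. Of the 12 genes with the largest fall 11 had more than 1 tested probe set. Of their 33 other probe sets 7 were called lower and 4 higher. Rnf14 was lower at all 3 of its probe sets, and Ptgds at both.

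**Figure D4:**
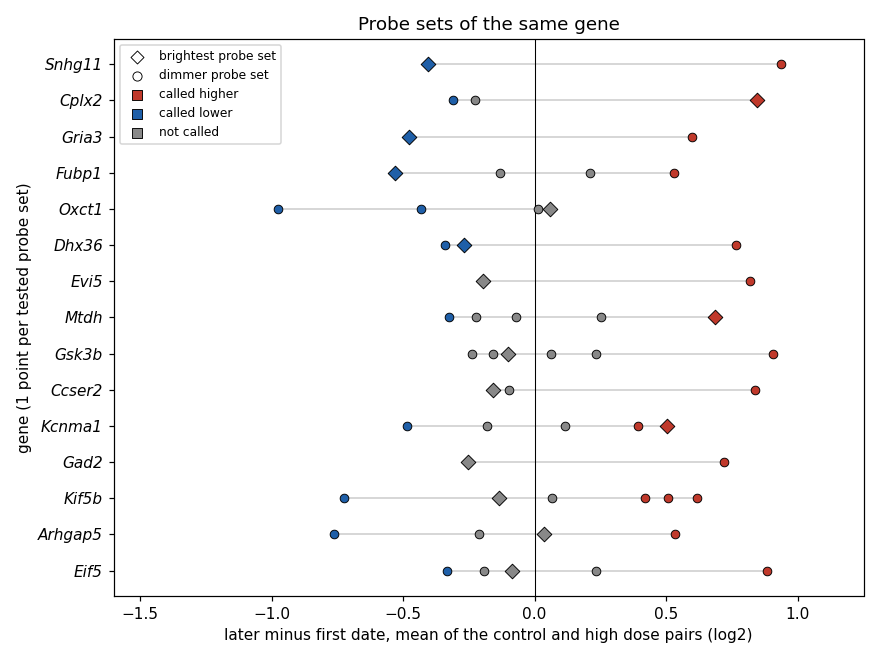
Date difference (log2, mean of the control and high dose pairs) of every tested probe set of 15 genes; diamonds are the brightest probe set of a gene, and red, blue and grey mark called higher, called lower and not called. Most genes hold 1 probe set far from the others, as in Gsk3b with 0.91 against -0.24 to 0.23, and Kif5b holds 3 red points and 1 blue.

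The share of calls differed with the rank of a probe set by signal within its gene. Of the brightest probe sets in genes with several, 2.08% were called higher and 8.24% lower. The second brightest had 6.46% and 8.52%, and those of rank 3 or below 7.75% and 7.21%. In genes with a single tested probe set the shares were 0.887% and 5.57%. These shares have no test and moved with the scaling: called higher were 5.71%, 9.75% and 11.5% of ranks 1, 2 and 3 or below after quantile normalization, and 7.91%, 8.99% and 9.36% with equal interquartile ranges, where the ranks lay closest together. Called lower with equal ranges were 3.02%, 4.63% and 4.26%. On the values as deposited, with all tested probe sets split into 4 equal bins by signal, the dimmer probe sets of a gene were called higher at a larger share than the brightest in each bin, with 5.03% against 1.61% in the lowest bin and 7.23% against 2.17% in the highest. The dimmer ones were also called lower at a larger share, except in the second lowest bin (6.45% against 7.47%). These shares were 3.29% against 2.81% in the lowest bin, 12.8% against 9.23% in the third and 14.5% against 8.47% in the highest. Taking the brightest probe set for each gene left 161 genes higher and 775 lower, 1.39% and 6.70% of 11559 and 8.1% together. Which end of the transcript a probe set reads was not analysed here.

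Other classes of probe set differed too. Those whose target was an expressed sequence tag were called higher in 4.46% (other sources) and 4.47% (RIKEN) of cases, and those built on RefSeq records in 2.23%. Probe sets without a gene symbol, 2552 above the same signal filter, were higher in 7.84% and lower in 5.45%. Those with the suffix _x_at, which hold probes that can bind other transcripts, were lower in 11.4% and higher in 2.54%. Probe sets of long noncoding RNA genes (317) were higher in 5.36% and lower in 5.05%, against 3.59% and 7.29% for protein-coding genes. These shares have no test of their own, and the classes overlap.

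Gene groups were described by the brightest probe set of each gene, beside a median of -0.06 and the 1.39% and 6.70% called over all genes. Ribosomal proteins had 1 of 43 higher, Rpl27a (0.43), 1 lower, Rpl37 (-0.40), and a median of 0.06. Of 56 subunits of the respiratory chain and ATP synthase 1 was higher, Cox6a1 (0.37), and 0 lower, with a median of 0.03. Of 31 proteasome subunits Psmd11 rose (0.27) and Psmc4 (-0.49) and Psmb7 (-0.48) fell. Over 40 lists with 5 or more tested genes the medians ran from -0.17 to 0.07, and 33 were below 0.

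Proteins of splicing speckles moved in both directions. Of 37 genes 3 rose, led by Srrm2 (0.80), a scaffold of nuclear speckles, and Thoc2 (0.73), a subunit of the mRNA export complex TREX, and 6 fell, led by the splicing regulator Tra2a (-0.50). The median was -0.12, or -0.06 after quantile normalization. Srrm2 read 11.49 and 11.07 on control 1 and high dose 1 and 11.97 and 12.20 on control 2 and high dose 2. Over all 136 probe sets of these genes 15 rose and 19 fell, beside 3.65% and 7.24% of all tested probe sets. Son, another speckle scaffold, rose at its brightest probe set 1420952_at (0.39) and fell at 1435862_at (-0.28) and 1455634_at (-0.35).

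Chromatin and transcription regulators showed how the choice of probe set matters. By the brightest probe set 1 of 39 rose, Ankrd12 (0.70), and 3 fell, among them Kmt2d (-0.34) and Med13 (-0.30), with a median of -0.09. Over all 84 of their probe sets 15 rose and 5 fell, beside 3.65% and 7.24% of all tested probe sets. Crebbp, an acetyltransferase coactivator, rose at 1436983_at by 0.76, from 9.63 to 9.99 in the control pair and from 9.09 to 10.25 in the high dose pair. Kmt2e rose at 3 probe sets by 0.36 to 0.75, and Smarca4, the ATPase of the SWI/SNF complex, at 1426805_at by 0.63. Atrx was lower at 1453734_at (-0.36) and higher at 1420946_at (0.33).

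Ion channels and receptors had more falls than rises at the brightest probe set, as did all genes (6.70% lower and 1.39% higher). Of 31 voltage-gated channel subunits 8 fell and 2 rose (median -0.14). Over their 67 probe sets 10 fell and 11 rose, beside 7.24% and 3.65% of all tested probe sets. Kcnab2 (-0.41) and Cacnb1 (-0.38) fell and Kcnma1 rose (0.50), while 4 genes of the list had probe sets in both directions, among them Cacnb4, Kcna2 and Cacna1b. Of 13 glutamate receptor subunits Grik3 (-0.55) and Gria3 (-0.48) fell, with a median of -0.17. Of 8 GABA-A receptor subunits Gabra2 (-0.44) and Gabra5 (-0.34) fell and the median was -0.17, but 0.01 when the probe sets of a gene were averaged. Gabra2 rose at another probe set, 1421738_at (0.48).

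Of 30 genes of synaptic vesicles and release 6 fell, led by Syp (-0.42) and Syt5 (-0.40), and Cplx2 rose. Of 30 translation factors 3 fell, Eif4e (-0.33), Eif6 (-0.30) and Eif4a1 (-0.30). Of 24 chaperones Stip1 (-0.31) and Hspa4l (-0.30) fell, and the median of -0.004 became 0.02 after quantile normalization. Hsp90aa1, which did not pass at its brightest probe set (0.03), rose at 1437497_a_at from 12.34 to 12.71 and from 11.97 to 13.02. Of 19 immediate early genes, which neuronal activity induces, 1 fell, Ier5 (-0.34), with a median of -0.05. The glucocorticoid-induced Klf9 rose at its brightest probe set (0.50).

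Nuclear noncoding RNAs also differed between their probe sets. Meg3, a maternally expressed RNA of the Dlk1 imprinted locus, had 11 tested probe sets. One of them, 1428764_at, rose from 13.23 to 13.81 in the control pair and from 12.97 to 13.85 in the high dose pair (0.73); 1429257_at rose by 0.34 and the other 9 did not pass, with values from -0.24 to 0.25. Rian, from the same locus, rose at 1428055_at by 0.75 and at 1440001_at by 0.48, while its brightest probe set had -0.05. Malat1, a speckle RNA, rose at 1452378_at (0.36) and 1436202_at (0.26) and had -0.23 at its brightest. Pantr1 fell by 0.27. Over the list 7 of 35 probe sets rose and 2 fell, beside 3.65% and 7.24% of all tested probe sets. By the brightest probe set 0 of 10 genes rose and 2 fell.

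Cell type markers were described in the same way. Of 12 oligodendrocyte markers 4 fell: Cldn11, a tight junction protein of myelin, from 10.78 to 10.19 and from 10.85 to 10.08 (-0.68), Mog (-0.52), Mag (-0.38) and Mal (-0.26). Mal rose at another probe set, 1432558_at (0.30). The median marker read 10.77 on control 1 and 10.80 on high dose 1, against 10.38 and 10.29 on the later arrays, and 10.94 and 10.89 on the low dose arrays. The list's median difference was -0.17. Of 15 dentate granule cell markers 3 fell (median -0.17), of 14 astrocyte markers 2 fell, among them the glutamate transporter Slc1a3 (-0.40), and 1 rose, Slc1a2 (0.26), with a median of -0.15. Of 13 microglia markers C1qb, a complement component, fell (-0.57) and Cx3cr1 rose (0.31). Wfs1, the CA1 marker named above, itself fell (-0.44). Dcn of the same list rose (0.33), but the low dose pair, without a date difference, also differed by 0.32 there. The CA1 list of 9 genes had a median of -0.06, or 0.002 after quantile normalization. Whether the amount of myelinated tissue in the pools differed was not tested.

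Choroid plexus markers differed between the pairs. Of 16 genes 15 were lower in the control pair and 16 higher in the high dose pair, with medians of -0.28 and 0.44, and the low dose pair had 0.18. The median marker read 8.84 on control 1, 8.46 on control 2, 8.55 on high dose 1 and 9.03 on high dose 2. In the mean of both pairs 1 of 16 rose, Ttr, the thyroid hormone carrier (0.33), and 0 fell. The low dose pair differed by 0.25 at this Ttr probe set. Ttr also passed at 1459737_s_at (0.34), but not at 1451580_a_at (0.21) or 1455913_x_at (0.17). Striatum markers had medians of 0.24 in the control and -0.14 in the high dose pair, and those of meninges and fibroblasts -0.25 and 0.03. Choroid plexus, striatum and meninges lie next to the hippocampus, and how much of each a pool contained was not tested.

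The test of the difference between the pairs, high dose minus control, passed for 84 probe sets of 81 genes (0.432%), 81 above 0 (0.417%) and 3 below (0.0154%), with 1250 at an unadjusted p under 0.05. This contrast is also right against left on the later arrays relative to the first-date arrays, and takes its spread from the low dose arrays alone. The median over all probe sets was 0.10, and -0.01 after quantile normalization, which gave 247 above and 135 below. Epn2, an endocytic adaptor, fell from 9.71 to 9.38 in the control pair and rose from 9.10 to 10.08 in the high dose pair, a difference of 1.30 (SE 0.18; limma adjusted p = 5.79e-09). Kcnj13 (1.12), Ecrg4 (1.10), Trpm3 (1.08) and Kcne2 (1.00) followed; Kcnj13 and Kcne2 are on the choroid plexus list, and 9 of its genes passed. Dnajb14, a J-domain cochaperone, had 1.01 and was higher in both pairs.

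Of the 84, 52 were also called higher by date and 1 lower. Below 0 were A330076H08Rik (-1.10), Malat1 at 1418189_s_at (-0.85) and Penk, the enkephalin precursor (-0.83). Malat1 read 13.36 and 13.55 on control 1 and 2 and 13.17 and 12.52 on high dose 1 and 2 there; at its other probe sets the high dose pair differed by -0.10 to 0.27. Penk read 11.31 and 11.68 in the control and 11.34 and 10.87 in the high dose pair. For Malat1 and Penk the call was lost with a variance prior that allows outlying probe sets (limma adjusted p = 0.641 and 0.226).

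The array's control probe sets read the same transcript at its 5′ end, middle and 3′ end. For β-actin the 3′ probe set exceeded the 5′ one by 1.19 log2 on control 1 and 1.10 on high dose 1, and by 1.50 and 1.38 on the later arrays, with 1.07 and 1.05 on the low dose arrays. For Gapdh the same difference was 0.22 and 0.09 on the first-date partners, 0.35 and 0.34 on the later arrays, and 0.11 and 0.10 on the low dose arrays. Both later arrays therefore had the widest 3′ to 5′ gaps of the 6 for both transcripts, by 0.31 and 0.28 for β-actin and 0.13 and 0.25 for Gapdh within the pairs. With 2 pairs no test was made. After quantile normalization the mean change for β-actin was 0.09 in place of 0.30, and for Gapdh 0.17 in place of 0.19.

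The gaps arose in different ways. The β-actin 3′ probe set rose by 0.23 and 0.32, close to the 0.22 between the low dose arrays, with -0.08 and 0.04 at the 5′ end. Gapdh, the glycolytic enzyme, was lower throughout on the later arrays, by 0.39 and 0.38 at its 5′ end and 0.26 and 0.13 at its 3′ end. For pyruvate carboxylase the gap changed by -0.35 and -0.06 and was lowest of the 6 arrays on both later arrays, but its 5′ probe set, at 7.75 and 7.69 on the later arrays, read below the median signal of those arrays. For transferrin receptor it changed by -0.11 and -0.05, with its 3′ and 5′ probe sets at 6.51 to 6.93, near the lowest signals of the arrays. At such signals a change in the gap cannot be read for either transcript. The brighter 3′ probe set of pyruvate carboxylase itself fell, from 9.93 to 9.66 in the control pair and from 9.81 to 9.70 in the high dose pair. Spiked controls gave mixed values. The gap widened in both pairs for r2-Bs-dap (0.29 and 0.34), LysX (0.23 and 0.06), r2-Ec-bioD (0.14 and 0.12) and DapX (0.03 and 0.11). It also widened in both for BioDn (0.06 and 0.16), r2-Bs-thr (0.07 and 0.08), TrpnX (0.05 and 0.05), CreX and r2-P1-cre. It narrowed in both for BioC (-0.06 and -0.16), BioB and r2-Ec-bioC. The pairs differed in sign for r2-Bs-phe (-0.15 and 0.21), r2-Bs-lys (0.20 and -0.09) and ThrX (0.15 and -0.03). They also did so for PheX (-0.06 and 0.14) and r2-Ec-bioB (0.07 and -0.17). Many spikes were dim as well. TrpnX read 6.50 to 6.78 at both ends, and the 5′ probe sets of LysX and r2-Bs-thr 6.96 to 7.30. That of BioB read 7.47 to 7.77, and those of the spikes that differed in sign also lay below the median signal. Changes in these gaps cannot be read either. On high dose 2 the 5′ probe sets of r2-Bs-dap and DapX were below the median too, both at 7.61.

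Ribosomal 18S RNA, which has no poly(A) tail, went the other way. Its 5′ probe set read 12.76 and 12.80 on control 1 and high dose 1 and 13.60 and 13.30 on control 2 and high dose 2, and its middle probe set 11.85 and 11.76 against 12.73 and 12.37. The 3′ probe set stayed between 13.09 and 13.29 on all 6 arrays. The rise at the 5′ end was 0.84 and 0.50, against 0.08 between the low dose arrays. The 3′ minus 5′ difference went from 0.50 and 0.29 to -0.33 and -0.06. Both later arrays thus carried more signal at 2 of the 3 probe sets of ribosomal RNA than any first-date array.

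**Figure D5:**
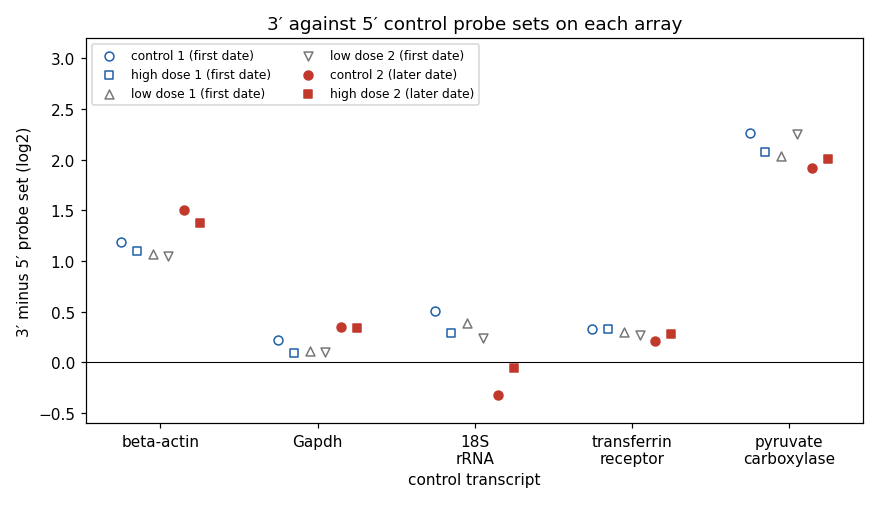
The 3′ minus 5′ control probe set, in log2 (y axis), on each of the 6 arrays for 5 mouse transcripts; filled red points are the later arrays. For β-actin and Gapdh the later arrays lie highest, for 18S rRNA lowest (-0.33 and -0.06), as they do for pyruvate carboxylase (1.91 and 2.01), whose 5′ probe set is dim; both probe sets of transferrin receptor are dim.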

How the data were processed

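Expression was measured on 6 Affymetrix mouse genome arrays. The values are log2 expression per probe set, deposited by the authors and made with RMA in R 3.0.1 per the submitters' processing notes; the RMA settings were not stated there. The arrays have like medians but unlike spread. Symbols came from the platform annotation, updated through RefSeq (34741 probe sets matched); 932 probe sets with several symbols and 64 control probe sets were not tested. Tested were probe sets whose mean exceeded the mean array median.

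Each probe set was fitted in limma 3.58.1 (R 4.3.3; lmFit, eBayes) over all 6 arrays with dose group and date as terms, which pairs the arrays within dose group; the low dose arrays add only to the spread. Differences between a dimmer and the brightest probe set of a gene were fitted likewise, and the difference between pairs with a date term for each dose. The variance prior was infinite for the first and last of these and had 10.7 degrees of freedom for the second. Benjamini-Hochberg adjustment ran over all features tested. The fits were tested on simulated data.

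Per direction, the 12 genes with the largest called date difference and both pairs in that direction were named, 1 probe set each; for the probe set differences the 12 largest, for the difference between pairs up to 6 per direction, and from each of 43 lists up to 3 members with the largest moderated statistic. Other members and probe sets are named where a count or gene described needs them and were chosen after their values were seen, as were Kif5b, Sf3b1 and Zeb2. Members and lists were chosen with earlier results of these data known. The class of target sequence, the shares by rank under other scalings, the counts outside the first-date arrays and the genes called in both directions were added after seeing the data. Positions of probe sets on transcripts, their sequences and protein lengths were not used here. Transcripts of the mitochondrial genome, histones (3 tested) and red blood cell genes (1 tested) gave no list.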

Additional observations from a re-analysis of the deposited data

Results flagged for a closer look

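In 17 named probe sets the date difference was not the same in the control and high dose pairs by limma's test of that difference (adjusted p under 0.05), which is also a comparison of sides. The high dose pair exceeded the control pair by 1.30 log2 in Epn2, 1.12 in Kcnj13, 1.10 in Ecrg4, 1.08 in Trpm3, 1.01 in Dnajb14, 1.00 in Kcne2 and 0.75 in Clic6. Among the probe sets with the largest rise by date it did so by 0.83 in Ankrd17, 0.82 in Ccser2, 0.79 in Eif5, 0.79 in Evi5, 0.73 in Eif3c, 0.72 in Atp2b1 and 0.68 in Cplx2. It lay below the control pair by -1.10 in A330076H08Rik, -0.85 in Malat1 and -0.83 in Penk.

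A330076H08Rik also stood out on 1 array: among the 4 first-date arrays control 1, at 7.73, was separated from the rest by 0.889 of the whole range. Chance marks about 5% of such groups of 4. The later arrays, at 9.65 and 9.39, lay above the other first-date arrays too, which read 8.53 to 8.63.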

How the results depend on the processing

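The called counts (709 higher, 1408 lower) kept within 1.5 times with the control and high dose arrays alone, without the signal filter or with other filters, and with a trended robust prior. They moved further as follows. Without the replicate block, that is without the pairing by dose group, 2517 were lower (813 higher). With side as a term 829 were lower. With RIN in place of date 274 were higher and 632 lower as RIN fell, scaled to the mean RIN drop of the control and high dose pairs. After quantile normalization 1286 were higher; with equal interquartile ranges 1293 were higher and 699 lower. Of the 709 higher probe sets 674 kept their call after quantile normalization and 666 with equal ranges, and of the 1408 lower ones 1199 and 668. Without 1 array the counts ran from 150 to 686 higher and from 310 to 1215 lower. For differences between probe sets of a gene (980 up, 633 down) equal ranges gave 639 and 1086; without 1 array they ran from 835 to 932 and from 496 to 654. For the difference between pairs (81 above, 3 below) quantile normalization gave 247 and 135, and the trended robust prior 5 below. The β-actin 3′ to 5′ change was 0.088 after quantile normalization. Of 383 settings of named date differences 382 kept their call. So did 143 of 143 of the probe set differences and 24 of 26 of the pair differences. The exceptions are the 3 given in the report. The probe sets were named for the size of their difference, which favours a kept call. List medians moved in 28 of 164 settings, by at least the SD between the medians of the control and high dose pairs. The settings include the control pair alone and the high dose pair alone. Since the limit is set by the gap between these pairs, it favours counting them as unmoved, also where they differ widely. Causes were not tested. The shared spread in most fits and the number of arrays limit what these p-values can show.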
